A study of Mus musculus with 8 samples.

Results

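The small leucine-rich proteoglycans are secreted proteins of the extracellular matrix, and 7 of their genes (Dcn, Bgn, Aspn, Fmod, Lum, Prelp and Ogn) were followed here through hearts under pressure overload. They were taken by gene symbol as 7 of the 32285 genes in the count tables. Their levels were read in 4 Visium sections, in which each spot captures the RNA of a small patch of tissue, and in 4 single-cell libraries, with 1 of each kind from sham hearts and from TAC hearts at 3 times, named TAC-2w, TAC-4w and TAC-6w. All hearts came from male C57BL/6J mice that were 8 weeks old at surgery. TAC mice had the transverse aorta narrowed by a ligature, so that the left ventricle worked against a raised pressure for 2, 4 or 6 weeks, while sham mice underwent the operation without the ligature. Whether a section and a library of the same name came from the same heart was not stated.

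Proteins of this family share a core of leucine-rich repeats, and most carry chains of chondroitin, dermatan or keratan sulfate. They bind collagen fibrils and shape the width and spacing of these fibrils, and several bind growth factors of the TGF-β family. In the heart they are made mainly by fibroblasts. Class I holds decorin (Dcn), biglycan (Bgn) and asporin (Aspn), class II holds fibromodulin (Fmod), lumican (Lum) and PRELP (Prelp), and class III holds osteoglycin (Ogn). The genes lie in neighbouring groups on the mouse genome (build GRCm38.p6). Aspn (chr13:49544443-49567565) and Ogn (chr13:49608015-49624501) are 40449 bases apart with only the relative Omd as a protein-coding gene between them. Dcn (chr10:97479500-97518163) and Lum (chr10:97565501-97572703) are 47337 bases apart. Prelp (chr1:133910304-133930102) and Fmod (chr1:134037254-134048280) are 107151 bases apart, with no protein-coding gene between them, and Bgn lies alone on chromosome X (chrX:73483601-73495936).

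The promoters of the 3 members whose cells were sought are shown because the genes differ in how widely fibroblasts carry them (below), and because Aspn and Ogn are near neighbours. Each sequence runs 5′ to 3′ on the plus strand from 250 bases before to 50 bases after the gene's start in RefSeq (GRCm38.p6). Capitals mark every match, on either strand, to the TATA box (TATAAA), the E-box (CANNTG) and the CCAAT box (CCAAT), and to the AP-1 (TGANTCA) and SMAD (GTCTAGAC) motifs. RefSeq promoters were found for 5 of the 7 members, and those of Dcn and Lum are named only.
Fmod, chr1:134037004-134037303: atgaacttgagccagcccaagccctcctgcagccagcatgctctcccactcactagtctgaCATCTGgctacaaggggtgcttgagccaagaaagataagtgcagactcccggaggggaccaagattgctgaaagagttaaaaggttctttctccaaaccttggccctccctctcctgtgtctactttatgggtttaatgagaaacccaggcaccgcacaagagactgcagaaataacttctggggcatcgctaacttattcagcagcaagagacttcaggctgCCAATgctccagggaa
Aspn, chr13:49544193-49544492: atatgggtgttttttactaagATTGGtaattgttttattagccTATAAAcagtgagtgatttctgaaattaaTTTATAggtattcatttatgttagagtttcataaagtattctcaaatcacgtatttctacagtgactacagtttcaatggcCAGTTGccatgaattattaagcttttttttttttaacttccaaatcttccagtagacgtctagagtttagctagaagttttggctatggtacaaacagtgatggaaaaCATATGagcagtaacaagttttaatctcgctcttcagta
Ogn, chr13:49607765-49608064: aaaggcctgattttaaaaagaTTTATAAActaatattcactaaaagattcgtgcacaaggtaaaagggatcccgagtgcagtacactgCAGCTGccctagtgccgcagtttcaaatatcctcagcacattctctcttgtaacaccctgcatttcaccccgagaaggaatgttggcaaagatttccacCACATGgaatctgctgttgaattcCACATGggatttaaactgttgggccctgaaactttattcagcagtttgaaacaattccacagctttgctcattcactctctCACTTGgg

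The Aspn window had 31% G and C and held 2 TATA-box matches, 2 E-boxes and 1 CCAAT box. The Ogn window had 42.3% G and C, with 2 overlapping TATA-box matches and 4 E-boxes, and the Fmod window had 51% G and C, with 1 E-box, 1 CCAAT box and no TATA-box match. Of all 32851 promoters in the table, 13.6% held the TATA-box letters, 72.3% an E-box and 37.4% a CCAAT box. No AP-1 match (7.81% of all promoters) and no SMAD match (0.213%) was found in the windows of these 3 genes, nor in those of Prelp and Bgn. A match is a stretch of letters and was not tested as a binding site.

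Fibroblasts were the cells with at least 1 UMI of Pdgfra, at least 10 UMIs of Col1a1 and Col3a1 together, and 0 UMIs of Ptprc and Pecam1, where a UMI is 1 captured RNA molecule. None of the 7 members was used in this gate. It held 7199 of the 27053 cells kept, with 3065 cells in sham, 2369 in TAC-2w, 265 in TAC-4w and 1500 in TAC-6w. All 8 fibroblast genes outside the gate (Col1a2, Tcf21, Lamc1, Gsn, Mfap5, Ddr2, Pcolce and Serpinf1) were higher in the gated cells than in the other cells of every library. The margin was uneven. It was 2.14 to 2.96 times in sham, 2.65 to 3.66 times in TAC-2w and 1.77 to 2.55 times in TAC-6w. In TAC-4w it was 8.12 to 16.9 times. How many fibroblasts the gate left among the other cells, and whether this differed between libraries, was not tested. The gated fibroblasts had median depths of 10706, 12706, 13564 and 6796.5 UMIs, listed here and later from sham to TAC-6w in order of time, and the sections held between 25996378 and 48754396 UMIs. The TAC-4w library stood apart, since 2596 of its 6747 cells were B cells and 1165 were neutrophils. Between 9 and 30 cell barcodes were shared by pairs of libraries, and at most 3 of them belonged to fibroblasts in both. By the labels, batch 1 held 2 sections, sham and TAC-2w, with the TAC-2w library, batch 2 held section and library of TAC-4w, and batch 3 held the TAC-6w section with 2 libraries, TAC-6w and sham. The other TAC groups cannot be told apart from their batch.

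Levels are UMIs of the gene per 1000000 UMIs (CPM) of a section or of its summed fibroblasts, and a ratio is a TAC level divided by the sham level of the same gene. With 1 sample per group no test between conditions is possible, so 95% intervals cover counting error only and say nothing of the spread between hearts. A gene was called higher or lower at a ratio of 1.5 or beyond in either direction, and was tested where either sample held at least 50 UMIs. Since transcripts were not counted per length, levels are compared across samples and cell types of 1 gene, not between genes. The submitters' protocol describes nuclei and the study's methods describe cells, and which of these entered the libraries could not be settled.

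In the sections, most of the family had its highest level at TAC-6w. At TAC-6w, 5 of the 7 members (Bgn, Aspn, Fmod, Lum and Prelp) were at least 1.5-fold above sham, where 17.6% of all genes tested were, and 0 were 1.5-fold below, where 0.962% of genes were. At TAC-2w, 0 of 6 members were called higher, with 4.95% of all genes, and 0 lower, with 3.27%. At TAC-4w, Dcn alone of 6 members was called higher, with 15.2% of genes, and 0 were called lower, with 2.5%. Fmod was below 50 UMIs in the first 3 sections and was tested only at TAC-6w. The median ratio of the tested members was 0.872, 0.960 and 2.10 in order of time, while that of all genes was 1.03, 1.16 and 1.24. In bulk spots, fewer cells of a type and less RNA per cell cannot be told apart.

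Biglycan, which also acts as a signal through Toll-like receptors once it is released, had the widest spread of the class I members. Its section level was 130 CPM in sham, 91.8 in TAC-2w, 125 in TAC-4w and 331 in TAC-6w. The TAC-6w level was 2.55 times sham (2.45 to 2.64), at or above 97.9% of all gene ratios, while the TAC-2w level was 0.706 times sham (0.675 to 0.738). The share of spots with a Bgn UMI was 68.4%, 79.0%, 81.5% and 93.4% in the same order, at median depths per spot that differed between sections. Asporin, a member that binds collagen and commonly lacks the sulfated chains, stood at 30.2, 22.8, 25.3 and 63.3 CPM. Its TAC-6w level was 2.10 times sham (1.94 to 2.27), and the TAC-2w and TAC-4w levels were 0.754 and 0.836 times sham.

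Decorin, which binds collagen and TGF-β, ran in another order, at 453, 463, 734 and 528 CPM. The TAC-4w level was 1.62 times sham (1.59 to 1.66), and the TAC-6w level was 1.17 times sham (1.14 to 1.19). Decorin was thus the member with its highest section at TAC-4w, while the other class I members had theirs at TAC-6w. The call of Dcn was lost under the other scalings, with a ratio of 1.36 over a total without mitochondrial and rRNA-like features.

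**Figure D1:**
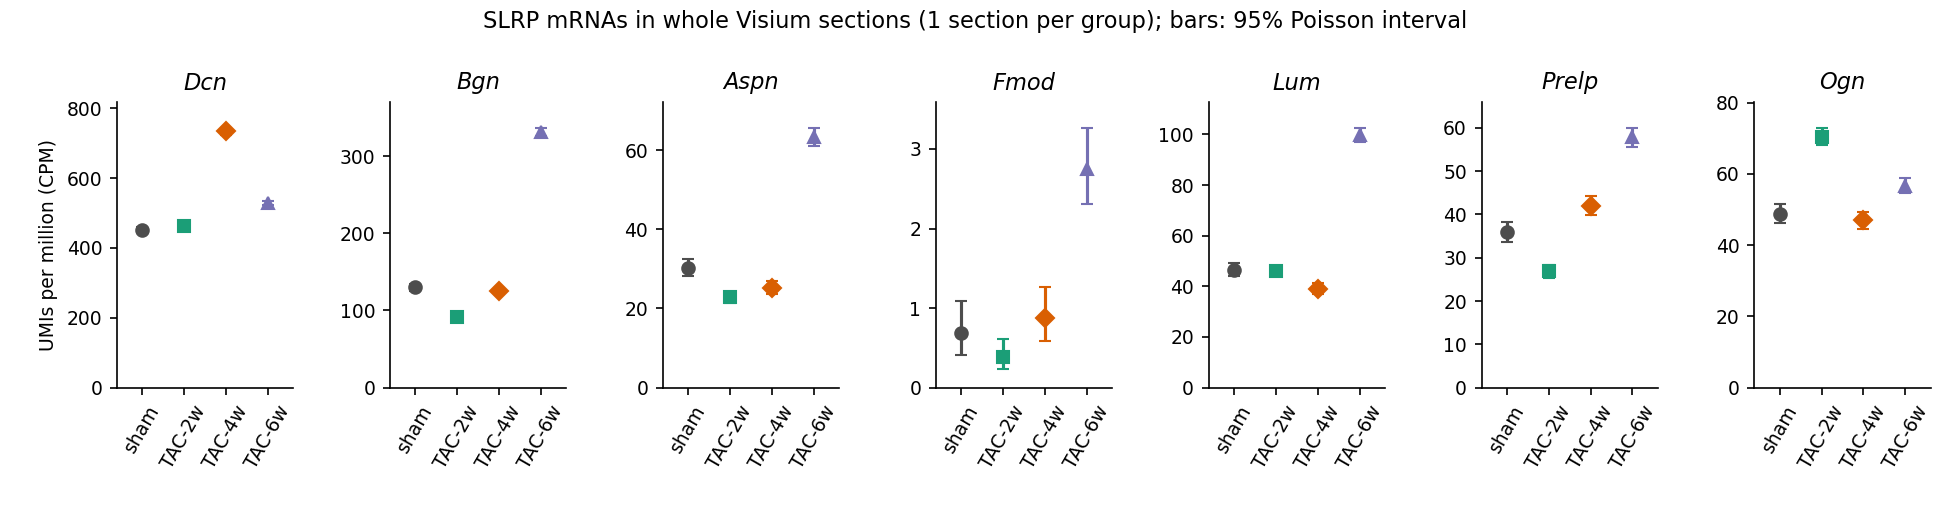
Level of each of the 7 genes in the 4 sections, in CPM on linear axes that start at 0 and differ between genes, with 1 point per section and bars for the 95% Poisson interval of its count. Bgn, Aspn, Fmod, Lum and Prelp have their highest point at TAC-6w, Dcn at TAC-4w and Ogn at TAC-2w.

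Of class II, fibromodulin, a collagen-binding protein best known from tendon and cartilage, was scarce in tissue. The sections held 18, 19, 28 and 133 Fmod UMIs, or 0.692, 0.390, 0.877 and 2.75 CPM. The TAC-6w level was 3.98 times sham (2.42 to 6.92), and 4.65% of its spots held a Fmod UMI against 1.07% in sham. Lumican, which keeps collagen fibrils thin and regular in the cornea, was at 46.6, 46.1, 39.1 and 99.7 CPM, so that TAC-6w was 2.14 times sham (2.01 to 2.28) and the other sections lay close together. PRELP, a heparin-binding member that links basement membrane to matrix, was at 35.9, 26.8, 42.0 and 57.8 CPM. Its TAC-6w level was 1.61 times sham (1.49 to 1.73), a call that was lost at 1.40 times without mitochondrial and rRNA-like features and at 1.3 times after division by the median ratio of all genes.

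Osteoglycin, the class III member, differed from the rest. It stood at 48.9 CPM in sham, 70.5 in TAC-2w, 47.0 in TAC-4w and 56.7 in TAC-6w. Its highest section was TAC-2w at 1.44 times sham (1.35 to 1.54), within the same batch, at or above 93.3% of all gene ratios but short of the 1.5-fold line. At TAC-6w the Ogn ratio was 1.16 (1.09 to 1.24), below the median ratio of 1.24 over all genes, and with division by that median it turned to 0.939.

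Mitochondrial transcripts took 51.5% of UMIs in the sham section and 42.2% to 44.2% in the TAC sections, and leaving these and rRNA-like features out moved every log2 ratio by -0.22, -0.26 and -0.21 in order of time. On that scale the members called at TAC-6w were 4 of 7, with 8.47% of all genes higher and 2.1% lower, and at TAC-2w 3 of 6 were called lower (Bgn, Aspn and Prelp), with 10.1% of all genes. Most fibroblast genes were also higher at TAC-6w. Of the 8 outside the gate, 5 were called higher there, where 17.6% of all genes were, and 0 lower, while Ddr2 was at 9.12 CPM in sham and 9.01 at TAC-6w. The summed level of the 8 was 0.859, 1.14 and 1.26 times sham in the 3 TAC sections in order of time. Gsn made up 1066 of the 1316 CPM of this sum in sham, and at TAC-6w the sum stayed near the median ratio of all genes, 1.24. The 11 immune markers summed to 0.778, 2.13 and 1.34 times sham, the 3 endothelial ones to 0.747, 0.822 and 1.47, the 3 mural ones to 0.863, 0.953 and 1.12, and the 5 heart muscle genes to 1.17, 0.869 and 1.05, with no marker at 0. Their part in the members' levels was not tested. Of the fibrillar collagens that these proteins coat, Col3a1 was at 87.4, 90.7, 31.3 and 267 CPM and Col1a1 at 47.0, 39.7, 29.2 and 128 CPM.

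In fibroblasts of the libraries the order of the time points was another one. At TAC-4w, 4 of 7 members (Aspn, Fmod, Lum and Prelp) were called higher, where 12.5% of all genes tested were, and 0 lower, where 9.24% were. At TAC-6w, 3 of 7 members (Bgn, Fmod and Prelp) were called higher, with 8.34% of all genes, and 0 lower, with 13.5%, and this comparison lay within batch 3. At TAC-2w, 0 of 7 were called higher, with 2.12% of genes, and 0 lower, with 1.47%. The median ratio of all genes was 1.02, 1.07 and 0.961 in order of time, and that of the members was 1.13, 1.95 and 0.917.

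The class I members of fibroblasts moved apart at TAC-6w. Bgn was at 2063 CPM in sham, 2328 in TAC-2w, 2406 in TAC-4w and 3891 in TAC-6w, and its TAC-6w ratio was 1.89 (1.86 to 1.91). Dcn was at 16094, 18204, 19586 and 11346 CPM, and its TAC-6w ratio was 0.705 (0.701 to 0.709). Within 1 library the fibroblasts held 0.128, 0.128 and 0.123 Bgn UMIs per Dcn UMI in sham, TAC-2w and TAC-4w, and 0.343 in TAC-6w. This ratio uses no total count, and it was close to equal in 3 libraries and higher in the TAC-6w library. The median fibroblast held Bgn at 1807, 2062, 2187 and 3606 CPM, so the TAC-6w level was not that of a few cells. Aspn was at 444, 433, 863 and 407 CPM, which was 1.95 times sham (1.87 to 2.02) at TAC-4w and 0.976 and 0.917 times sham at TAC-2w and TAC-6w.

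**Figure D2:**
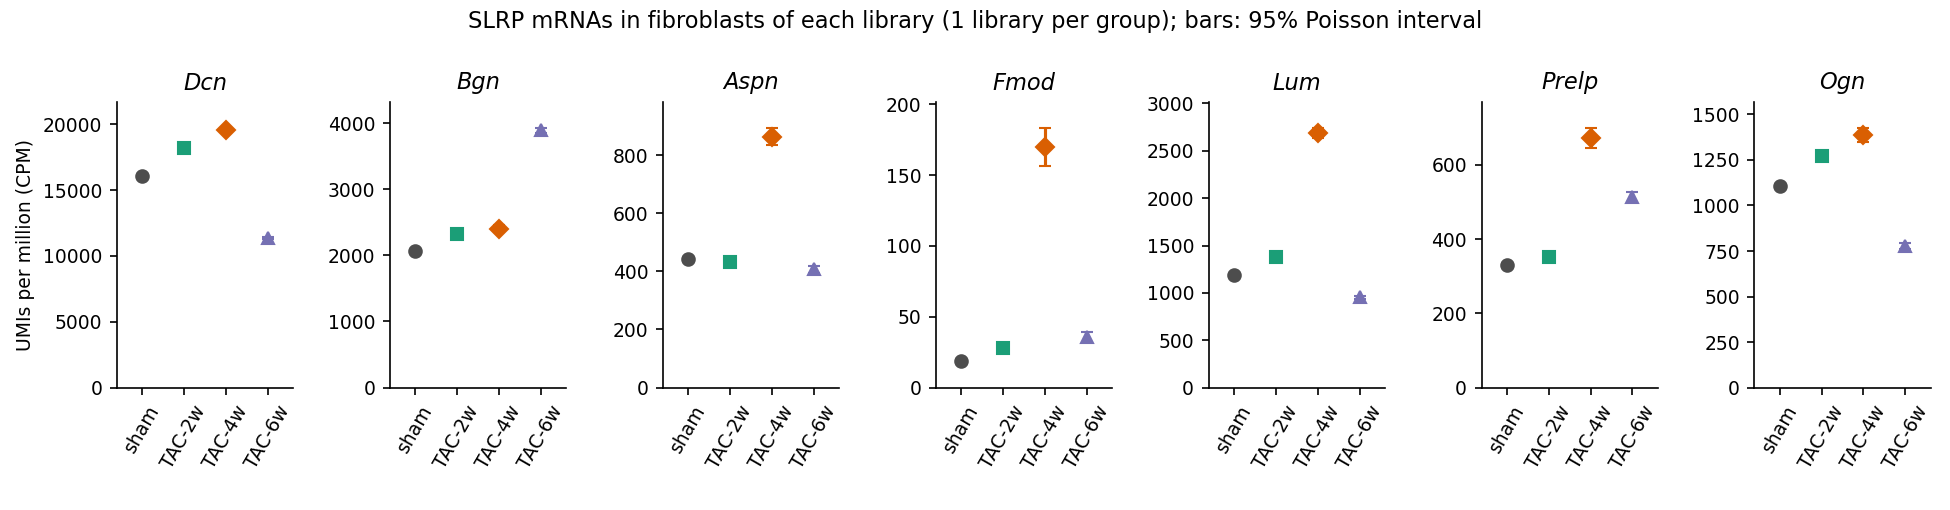
Level of each of the 7 genes in the summed fibroblasts of the 4 libraries, in CPM on linear axes that start at 0 and differ between genes, with bars for the 95% Poisson interval. Dcn, Aspn, Fmod, Lum, Prelp and Ogn have their highest point at TAC-4w, where 265 fibroblasts were found, and Bgn at TAC-6w.

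Of class II, Fmod was at 18.9 CPM in sham, 28.2 in TAC-2w, 170 in TAC-4w and 35.5 in TAC-6w. Its ratios were 1.49 (1.34 to 1.65), 8.96 (8.02 to 10.0) and 1.87 (1.65 to 2.13), and the TAC-4w ratio was at or above 99.8% of all gene ratios. These intervals take each UMI as independent, while 50% of the Fmod UMIs lay in 8, 12, 12 and 6 fibroblasts of the 4 libraries. At TAC-6w the alternatives gave ratios from 1.54, with the mean level of each cell, to 2.48. All 3 TAC libraries were above sham, and without TAC-4w the levels spanned 18.9 to 35.5 CPM. Lum was at 1184, 1384, 2689 and 952 CPM, 2.27 times sham (2.22 to 2.32) at TAC-4w and 0.804 times at TAC-6w. Prelp was at 330, 353, 673 and 513 CPM, 2.04 times sham (1.95 to 2.13) at TAC-4w and 1.55 times (1.51 to 1.61) at TAC-6w. Prelp at TAC-6w kept its call in 8 of 10 alternatives, with ratios from 1.46 to 2.19.

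Ogn was at 1105, 1272, 1388 and 779 CPM in fibroblasts, with ratios of 1.15, 1.26 and 0.704 (0.688 to 0.721). Ogn and Dcn thus ran alike across the 4 libraries, higher than sham at TAC-2w and TAC-4w and below it at TAC-6w, short of the 1.5-fold line in each case. Fmod, Aspn, Lum and Prelp were highest at TAC-6w in tissue and at TAC-4w in fibroblasts, and Ogn at TAC-2w in tissue and at TAC-4w in fibroblasts. Dcn was highest at TAC-4w and Bgn at TAC-6w in both kinds of data.

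Markers of other cells within the gated fibroblasts differed between libraries, in both directions at TAC-4w. The 3 mural markers Rgs5, Kcnj8 and Myh11 summed to 26.4, 30.5, 148 and 8.04 CPM, of which Rgs5 made up 110 CPM at TAC-4w, while Myh11 was at 0.266 CPM there and at 14.4 CPM in sham. All kept cells outside the gate held less Rgs5 (12.1 CPM) and Kcnj8 (6.62 against 38.0 CPM inside) at TAC-4w, and more Myh11 (7.21 CPM). From which cells this RNA came was not tested. The 11 immune markers summed to 109, 43.3, 192 and 80.3 CPM, with 1 or 2 of them at 0 in each library (Ptprc by the gate). Of these, S100a8 and S100a9 were called higher at TAC-4w, where 12.5% of all genes tested were. Csf1r, C1qa and Adgre1 were called lower, where 9.24% were. Without the minimum of 50 UMIs, 7 of the 11 were at least 1.5-fold above sham at TAC-4w and 3 below. The others above sham rested on 1 (Cd3e) to 34 (Cd79a) UMIs at TAC-4w. S100a8 and S100a9 were at 71.7 and 101 CPM there, while C1qa was at 2.39 CPM there and at 32.1 CPM in sham. The 3 endothelial markers summed to between 2.08 and 5.04 CPM with Pecam1 at 0 by the gate, and the 5 heart muscle genes to 92.3, 134, 18.3 and 19.2 CPM. The 8 fibroblast genes summed to 1.03, 0.692 and 0.812 times sham in order of time. Most of this sum was Gsn, with 22161.5 of the 28964.9 CPM in sham, and Gsn fell to 12493 (TAC-4w) and 15755 CPM (TAC-6w). The sum thus does not speak for the 8 genes as a group. In TAC-4w fibroblasts 1 of the 8 was at least 1.5-fold above sham and 3 were below, and in those of TAC-6w 1 was above and 0 below. Leaving out every fibroblast with a UMI of 7 genes of other lineages, Rgs5 and Myh11 among them, left 189 cells at TAC-4w, and the ratios there were 10.3 for Fmod, 1.76 for Aspn, 2.16 for Lum and 1.97 for Prelp.

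Across cell types, Dcn, Bgn, Aspn, Lum, Prelp and Ogn were highest in the gated fibroblasts of all 4 libraries among the types with at least 50 cells. Every other type had to lack Pdgfra and hold fewer than 10 UMIs of Col1a1 and Col3a1 together. The gates thus kept cells rich in collagen RNA out of the other types, and this order follows in part from them. Over the 4 libraries Dcn ranged from 11346 to 19586 CPM in fibroblasts, 26.6 to 839 CPM in endothelial cells, 15.2 to 133 CPM in macrophages and 32.3 to 229 CPM in B cells. Mural cells passed 50 cells in sham (53 cells) and TAC-2w only. They held Ogn at 546 and 589 CPM and Aspn at 217 and 266 CPM, while endothelial cells held at most 10.7 CPM of Ogn and 11.4 CPM of Aspn. In sham, Fmod was at 19.2 CPM in mural cells, from 7 UMIs, against 18.9 CPM in fibroblasts.

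Biglycan was also read in vessel cells. Endothelial cells held Bgn at 81.5 to 844 CPM, and mural cells at 875 and 933 CPM. Per Dcn UMI, endothelial cells of the 4 libraries held 1.01, 0.788, 3.07 and 1.69 Bgn UMIs and mural cells of sham and TAC-2w 1.91 and 1.14, where fibroblasts held 0.128, 0.128, 0.123 and 0.343. Immune cells held 0.327, 0.358, 0.3 and 0.281 (macrophages) and 0.33, 0.255, 0.586 and 0.5 (T cells), the lowest counts being 6 Bgn UMIs in TAC-4w macrophages and 5 in TAC-6w T cells. The part of RNA freed from other cells in these counts was not tested.

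The 3 members whose cells were sought differed in how many fibroblasts carried them. Ogn had a UMI in 93.6%, 95.6%, 87.2% and 91.5% of the fibroblasts of the 4 libraries. Aspn had one in 65.4%, 64.8%, 77% and 64.5%, and Fmod in 2.77% (2.22 to 3.42), 3.97% (3.22 to 4.83), 31.7% (26.1 to 37.7) and 5.13% (4.07 to 6.37). With every cell thinned to 2000 UMIs, which left out at most 14 fibroblasts per library, the shares were 73.6%, 78.5%, 72.7% and 70.3% for Ogn, 36.2%, 33.9%, 53.8% and 40.2% for Aspn and 1.24%, 1.90%, 16.7% and 2.15% for Fmod. The TAC-4w fibroblasts thus stood above the other libraries for Fmod and Aspn at equal depth, while those of Ogn did not. Macrophages, which should lack these genes, held a UMI in 0% to 5.72% (Ogn), 0% to 2.86% (Aspn) and 0.233% to 0.701% (Fmod) of cells before thinning, at median depths of 3844 to 9188 UMIs.

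Among the gated fibroblasts, a Fmod UMI lay in few cells of sham, TAC-2w and TAC-6w, and in 31.7% of the cells at TAC-4w. All cells outside the gate together held Fmod at 17.2, 24.1, 7.97 and 26.8 CPM, against 18.9, 28.2, 170 and 35.5 CPM inside it. The level inside was thus far above that outside only at TAC-4w, and the cells outside were not split by the markers below. Among the named other types with at least 50 cells, all but mural cells held Fmod at 1.68 CPM or less. Cells outside the gate held Dcn at 6200, 5313, 1269 and 5735 CPM, where none of these named types passed 839 CPM. How much of the Fmod outside the gate lay in fibroblasts that the gate missed was not tested. TAC-4w was also the library where the 8 fibroblast genes outside the gate stood furthest above the other cells. The 654, 886, 639 and 393 Fmod UMIs of the gated fibroblasts came with 50% of them in 8, 12, 12 and 6 fibroblasts, and single cells reached 85, 62, 60 and 58 UMIs. Cells with at least 10 Fmod UMIs numbered 20, 27, 22 and 11, of 3065, 2369, 265 and 1500 fibroblasts. The most Fmod-rich 5% of fibroblasts held 100%, 100%, 55.2% and 99.5% of its UMIs. Aspn was wider, with 50% of its UMIs in 281, 205, 33 and 179 cells, and Ogn wider still, with 50% in 644, 517, 47 and 317 cells. The most Aspn-rich 5% of fibroblasts held 28.6% to 36.7% of its UMIs, and the most Ogn-rich 5% held 17% to 21.3%.

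To see which fibroblasts these were, the level of each member was read inside and outside the cells with a UMI of 12 subset markers. Cells with a UMI of Wif1, a secreted Wnt inhibitor, held Fmod at 489, 531, 281 and 627 CPM, against 5.72, 9.84, 154 and 29.7 CPM in the other fibroblasts. The ratio was 85.5, 54.0, 1.82 and 21.1, from 73, 71, 29 and 12 cells, so Wif1-positive cells were far apart from the rest in 3 libraries and close to them at TAC-4w. Comp, a cartilage and tendon matrix glycoprotein, marked the Fmod cells in every library. Comp-positive cells held Fmod at 133, 224, 316 and 175 CPM, which was 23.2, 31.7, 5.40 and 31.8 times the level outside, and 476 of 654, 686 of 886, 514 of 639 and 343 of 393 Fmod UMIs lay in them.

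Scx, the transcription factor scleraxis of tendon progenitors, marked Fmod-rich cells in all libraries but TAC-4w. Scx-positive cells, 33, 42, 13 and 41 in number, held Fmod at 912, 660, 178 and 683 CPM, which was 166, 49.5, 1.06 and 64.4 times the level outside. Cells positive for Cthrc1, a gene of injury-activated fibroblasts, were 4.77 to 26.1 times the others, those positive for Acta2, the smooth muscle actin of myofibroblasts, 2.16 to 16.5 times, and those positive for Cilp, a matrix protein of cartilage, 1.81 to 5.48 times. Postn-positive fibroblasts, the activated state marked by periostin, held Fmod at 5.98, 5.84, 2.74 and 5.28 times the level of the others. In all, 6 of the 12 markers (Wif1, Postn, Cilp, Comp, Cthrc1 and Acta2) marked cells with at least 1.5-fold more Fmod in all 4 libraries, and 9 of 12 did so without TAC-4w. Of these 9, Hapln1 rested on 1 positive cell at TAC-6w. With cells thinned to 2000 UMIs the number was again 6, of which Postn, Cilp, Comp and Acta2 were shared. Wif1 fell to 1.35 at TAC-4w, and Cthrc1 to 0 in its lowest library.

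**Figure D3:**
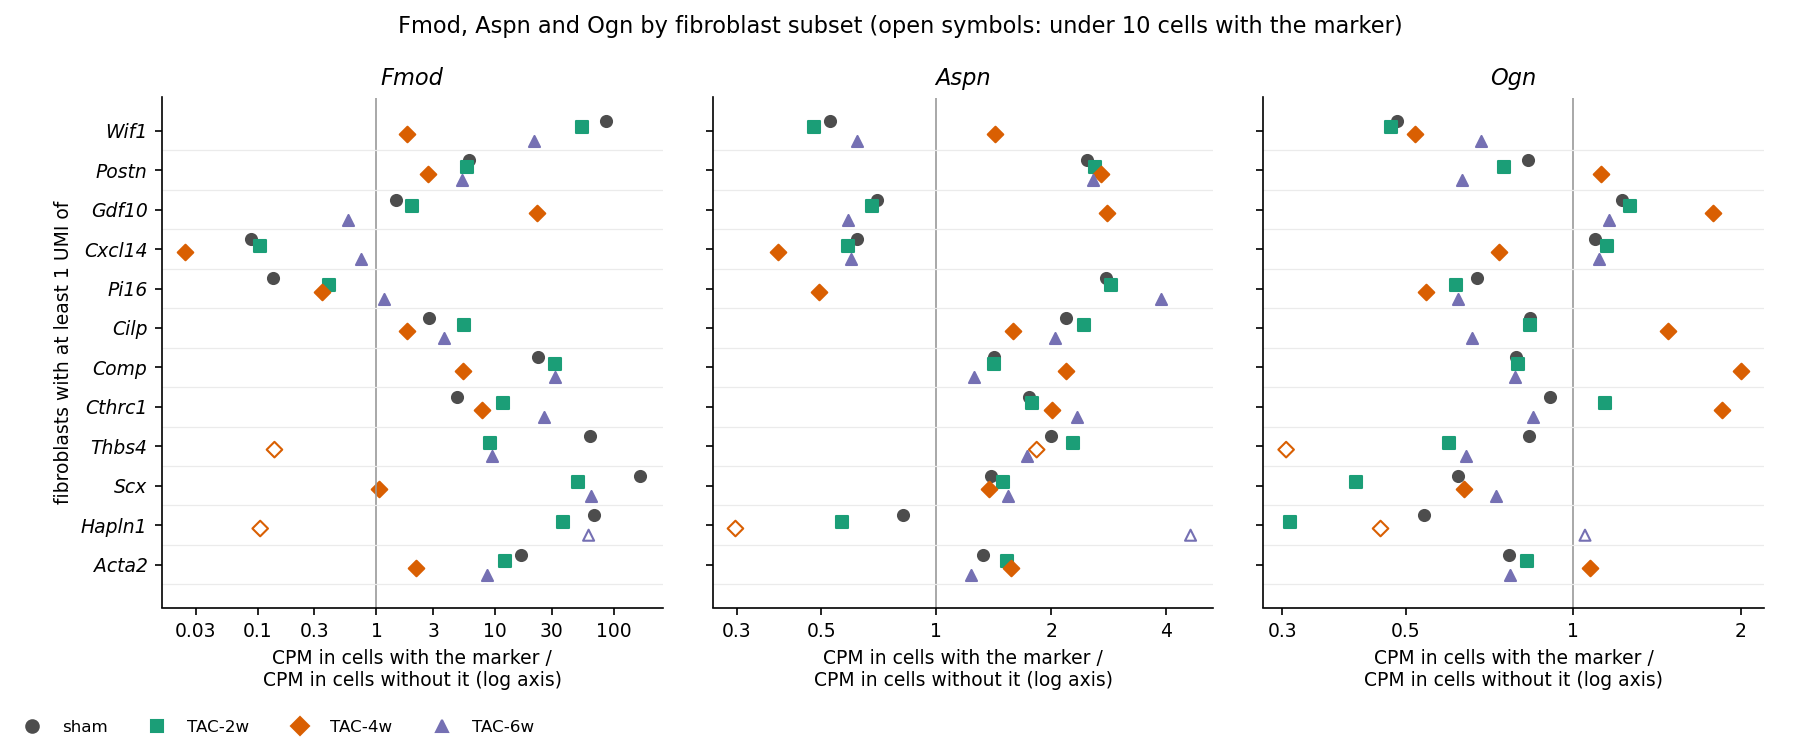
Level inside divided by level outside each of the 12 subsets of fibroblasts with a UMI of the marker, on a log axis, for Fmod, Aspn and Ogn, with 1 symbol per library and open symbols for subsets under 10 cells. Fmod spreads over several powers of 10, Aspn is above 1 in Postn-positive cells of all 4 libraries, at 2.48 to 2.70, and Ogn is below 1 in Wif1-positive and Pi16-positive cells of all 4.

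Which fibroblasts held Fmod differed between libraries, and by Gdf10 the TAC-4w library stood apart from the others. Cells positive for Gdf10, a growth factor of the bone morphogenetic protein family, were 296 of 3065 fibroblasts in sham, 260 of 2369 in TAC-2w, 124 of 265 in TAC-4w and 48 of 1500 in TAC-6w. They held Fmod at 1.45, 1.99, 22.7 and 0.573 times the level of the other fibroblasts. After these values had been seen, fibroblasts were split by both genes. Cells with Wif1 and without Gdf10 held 68.3%, 61.3%, 0.626% and 17% of the Fmod UMIs, cells with Gdf10 and without Wif1 held 10.9%, 14.1%, 75.6% and 1.78%, and cells with neither held 18.5%, 19.5%, 4.23% and 81.2%. Cells with both held 2.29%, 5.08%, 19.6% and 0%. At TAC-4w these were 16 cells with Fmod at 552 CPM, against 318 CPM in cells with Gdf10 alone. Of the cells with at least 10 Fmod UMIs, Wif1 was found in 14 of 20, 18 of 27, 5 of 22 and 2 of 11, and Gdf10 in 4 of 20, 7 of 27, 22 of 22 and 0 of 11.

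**Figure D4:**
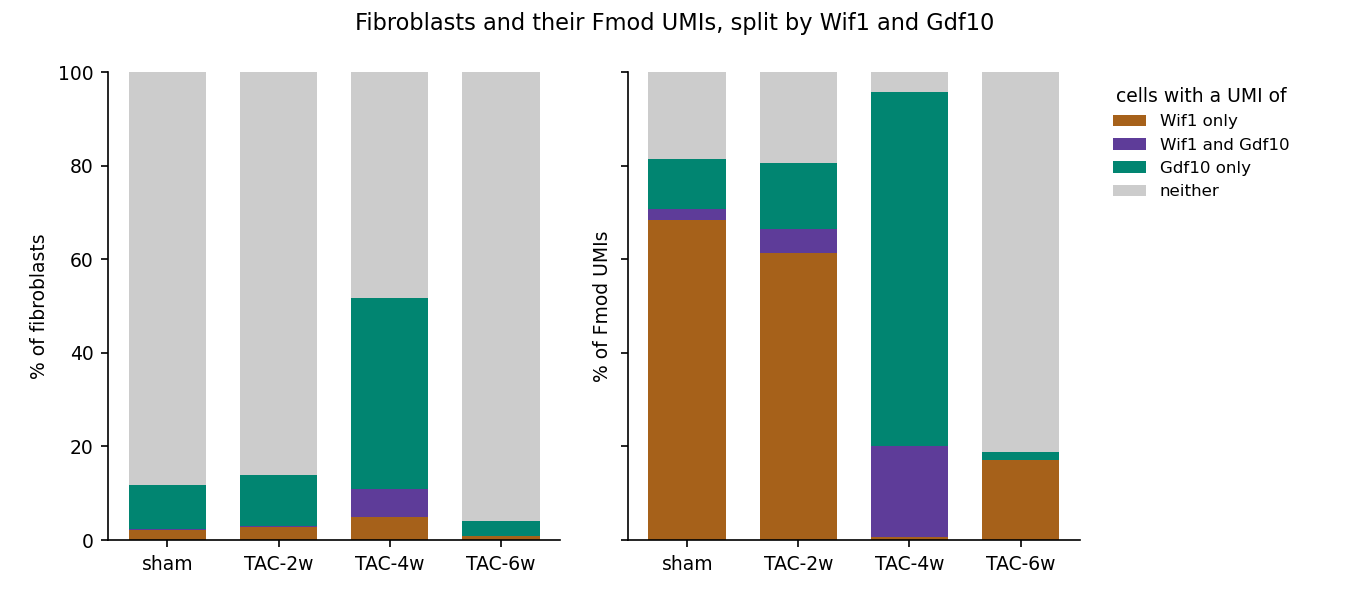
Fibroblasts of each library split by a UMI of Wif1 and of Gdf10, as a percent of fibroblasts and as a percent of Fmod UMIs. Cells with Wif1 alone hold 68.3% and 61.3% of Fmod UMIs in sham and TAC-2w, cells with Gdf10 alone 75.6% in TAC-4w, and cells with neither 81.2% in TAC-6w. Cells with both hold 19.6% in TAC-4w.

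In TAC-6w, cells with neither marker were 96% of fibroblasts and held 81.2% of Fmod UMIs, at 30.0 CPM, while the 12 cells with Wif1 alone (0.8%) held Fmod at 627 CPM. All 11 TAC-6w cells with at least 10 Fmod UMIs held Comp, 9 held Scx and 9 held Postn, against 14.6%, 2.73% and 46.9% of all its fibroblasts. In sham 14 of 20 held Comp, 14 held Scx and 14 held Postn, against 9.53%, 1.08% and 25.0% of all fibroblasts, and in TAC-2w 21, 14 and 20 of 27 did, against 8.95%, 1.77% and 28.1%. In TAC-4w 16 of 22 held Comp, 15 held Postn and 18 held Cthrc1, against 42.6%, 49.1% and 26.8% of all fibroblasts. There 1 held Scx and 0 held Thbs4, against 4.91% and 1.89%. Cthrc1 was held by 5 of 20, 9 of 27 and 6 of 11 in sham, TAC-2w and TAC-6w, against 3.26%, 3.42% and 1.6%. These cells were deeper than the average fibroblast, with median depths of 14392.5, 16414, 14933 and 10662 UMIs, so a UMI of any marker was more likely in them.

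Gdf10-positive fibroblasts also stood apart at TAC-4w for other members. Inside these cells the TAC-4w level was 13.2 times sham for Fmod, 4.13 for Aspn, 4.05 for Prelp and 2.76 for Lum. Outside them it was 0.844, 1.03, 1.2 and 1.28 times sham. All 4 ratios thus passed 1.5 in Gdf10-positive cells and stayed short of it in the others. Gdf10 itself was at 20.2, 26.9, 348 and 5.33 CPM in the fibroblasts of the 4 libraries. Its positive cells held 697 Gdf10 UMIs in sham and 1311 in TAC-4w, so those of the 2 libraries need not be alike. Gdf10 was 1 of 12 markers read in this way. Read by Comp, the TAC-4w level outside the positive cells was 1.34 (Aspn), 1.48 (Lum), 1.62 (Prelp) and 10.2 (Fmod) times sham. The values of the other markers are not given. Gdf10-positive cells were 46.8% of fibroblasts in that library and 3.2% to 11.0% in the others. With 265 fibroblasts from 1 library in a batch of its own, a difference between hearts, of preparation and of time cannot be told apart.

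Within each library, asporin was higher in the fibroblasts with periostin. Postn-positive fibroblasts held Aspn at 767, 742, 1225 and 568 CPM, against 310, 284, 453 and 220 CPM in the others. The ratio thus stayed within 2.48 to 2.70 over the 4 libraries while the level itself varied. Across libraries Aspn did not follow Postn, which was at 236, 294, 287 and 813 CPM in all fibroblasts. Aspn was at 444, 433, 863 and 407 CPM there, and so was lowest at TAC-6w, where Postn was highest. The TAC-6w level of Aspn was 0.740 times sham inside Postn-positive cells and 0.710 times outside them. Cilp-positive cells were at 1.59 to 2.44 times the others, Cthrc1-positive cells at 1.75 to 2.34 times and cells positive for Thbs4, a matricellular protein of tendon and of stressed heart, at 1.73 to 2.29 times, with 5 such cells at TAC-4w. These 4 markers passed 1.5-fold in all 4 libraries, and 5 did without TAC-4w, the added one being Pi16. Pi16, a marker of adventitial fibroblasts, went with Aspn in sham, TAC-2w and TAC-6w (2.79, 2.87 and 3.87 times) and the other way at TAC-4w (0.494 times). Cells positive for the chemokine Cxcl14 held less Aspn in all 4 libraries, at 0.385 to 0.619 times the others. Wif1-positive cells, rich in Fmod, held Aspn at 0.527, 0.477 and 0.619 times the others in sham, TAC-2w and TAC-6w and at 1.42 times at TAC-4w.

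Osteoglycin was spread more evenly than either. None of the 12 markers passed 1.5-fold for Ogn in the same direction in all 4 libraries, nor in the 3 libraries without TAC-4w. The ratios lay below 1 in every library for Wif1-positive cells (0.470 to 0.683), Scx-positive cells (0.407 to 0.725), Thbs4-positive cells (0.305 to 0.834, with 5 cells at TAC-4w) and Pi16-positive cells (0.545 to 0.671). They lay above 1 in every library for Gdf10-positive cells, at 1.22, 1.26, 1.78 and 1.16. Postn-positive cells, rich in Aspn, held Ogn at 0.831, 0.750, 1.12 and 0.632 times the others. Postn, Cilp and Cthrc1 passed 1.5-fold in all 4 libraries for both Fmod and Aspn and for Ogn did not, though Cthrc1 lost this for Fmod on thinned cells. At TAC-4w, Gdf10-positive cells were above the rest for all 3 genes, at 22.7 (Fmod), 2.80 (Aspn) and 1.78 times (Ogn). Gdf10 was not the only such marker, since Comp-positive cells were there at 5.40, 2.18 and 2.00 times the rest.

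Among the other members, Prelp was higher in cells with Fmod in all 4 libraries. Cells with a Fmod UMI held Prelp at 1719, 1744, 1200 and 966 CPM, against 288, 286, 411 and 481 CPM in cells without one. The ratio was 5.97, 6.11, 2.92 and 2.01, and on thinned cells it was 7.29, 8.32, 3.00 and 2.00. Prelp was also 1.5-fold or more higher in Wif1-positive, Comp-positive and Scx-positive cells of all 4 libraries, with ratios of 5.68, 6.05, 1.83 and 3.53 for Wif1, and without TAC-4w Thbs4 and Hapln1 passed as well, which made 5 markers. Hapln1 rested on 1 positive cell at TAC-6w. Bgn in cells with a Fmod UMI was 1.3 to 1.43 times its level in the others. Aspn in those cells was 0.943, 1.27, 2.12 and 1.38 times the others, and so above 1 in all libraries but sham.

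By the lowest ratio over the 4 libraries, the genes most raised in fibroblasts with a Fmod UMI were Galr2 (9.0), a galanin receptor, Cthrc1 (8.45), Cpxm2 (8.10), the minor fibrillar collagen Col11a1 (7.25) and Comp (6.69), of 7806 genes ranked. Chrdl1, Angptl7, Serpinb6b, Ecrg4 and Pdgfc made up the 10. For Aspn they were Thbs4 (3.87), Cilp (3.19), Prrt4 (3.15), the TGF-β binding protein Ltbp2 (2.76) and Cmah (2.69), followed by Fhl2, Anxa8, Dpp4, Cthrc1 and the short-chain collagen Col8a1. For Ogn they were the vasodilator peptide adrenomedullin (Adm, 6.91), Ccn5 (4.98), the Wnt modulator Sfrp2 (4.12), Gm26771 (3.80) and Basp1 (3.4), followed by Inmt, Vegfd, Omd, Dpep1 and Gm26802. Omd, the gene between Aspn and Ogn, was thus among the 10 of Ogn, at 2.59 or more in each library. Ranked without TAC-4w, a choice made after the values were seen, 3 of the 10 for Fmod (Ecrg4, Col11a1 and Serpinb6b), 5 of the 10 for Aspn and 7 of the 10 for Ogn were shared. The Fmod list was then led by Chad (181), the family member chondroadherin of cartilage, Cilp2 (47.3) and Scx (40.6), while Thbs4 led for Aspn (9.01) and Adm for Ogn (6.91). Cells with a UMI of a scarce gene are deeper, and these lists were chosen for their ratios and carry no test. A gene was ranked where the cells with the member held at least 50 of its UMIs over the 4 libraries together, so a single library could carry it in. In cells with Fmod, Galr2 was at 8.88, 10.3, 60.8 and 5.39 CPM and Pdgfc at 11.8, 13.1, 30.4 and 1.35 CPM, both highest at TAC-4w.

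In the sections, spots rich in collagen held more of 6 members, with the interval above 1 in all 4 sections, and Fmod was too scarce there to tell in 3 of them. In the 10% of spots with the highest Col1a1 and Col3a1 level, Bgn was 2.71, 2.31, 3.44 and 2.10 times the rest and Ogn 1.57, 1.36, 1.19 and 1.58 times, in the order of the sections. Fmod was 2.53 (0.607 to 8.06), 1.74 (0.325 to 6.07), 2.56 (0.85 to 6.51) and 3.95 (2.65 to 5.80) times the rest, from 4, 3, 6 and 39 UMIs, and with spots of 10000 to 30000 UMIs alone the TAC-2w spots held 0. In the 10% of spots with the highest smooth muscle level (Myh11, Tagln and Acta2), Bgn was 2.78, 1.72, 2.66 and 1.77 times the rest, and Dcn, Aspn, Lum and Prelp were also above it with intervals above 1 in all 4 sections. Ogn was 1.39, 1.07 (0.955 to 1.19), 1.27 and 1.13 (0.981 to 1.31) times the rest, and 0.944 at TAC-6w with spots of 10000 to 30000 UMIs, where Aspn (0.928 to 1.40) and Prelp (0.866 to 1.34) also had intervals that held 1. Fmod was above the rest from 3 and 4 UMIs in sham and TAC-2w, with intervals that held 1, and at 3.67 and 4.37 times in TAC-4w and TAC-6w. Moran's I, which is above 0 where neighbouring spots are alike, was 0.162, 0.0847, 0.280 and 0.19 for Bgn, 0.123 to 0.152 for Dcn and 0.0166 to 0.0521 for Ogn. Bgn thus had the highest value of these 3 in sham, TAC-4w and TAC-6w, and Ogn the lowest in all 4 sections. Of the other members, Prelp was below Ogn at TAC-2w (-0.00587) and TAC-6w (0.0398), and Fmod at TAC-4w (0.0486). In sham, 44.9% of spots held an Ogn UMI and 91.5% a Dcn UMI, and the part of such differences in Moran's I was not tested.

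At the edge of the tissue Fmod and Aspn lay apart. Edge spots, which lack at least 1 of their 6 neighbours over tissue, were 150, 170, 126 and 168 in number, or 7.66% to 10.3% of spots. They held 8 of 18, 10 of 19, 18 of 28 and 46 of 133 Fmod UMIs. The Fmod level at the edge was 5.05 (1.73 to 14.2), 11.0 (4.03 to 30.7), 15.0 (6.57 to 36.4) and 4.93 (3.37 to 7.13) times that of interior spots, above 1 in each section. Aspn was 0.475, 0.688, 0.88 and 0.597 times as high at the edge as inside, and Dcn 0.645, 0.905, 0.949 and 1.07 times. For Aspn the TAC-4w interval (0.686 to 1.11) held 1, also with spots of 10000 to 30000 UMIs (0.514 to 1.13). Edge spots were deeper than interior ones in 3 of the sections, and with spots of 10000 to 30000 UMIs alone the Fmod ratios were 4.98, 14.0, 13.2 and 16.9, from 4, 4, 13 and 26 edge UMIs.

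**Figure D5:**
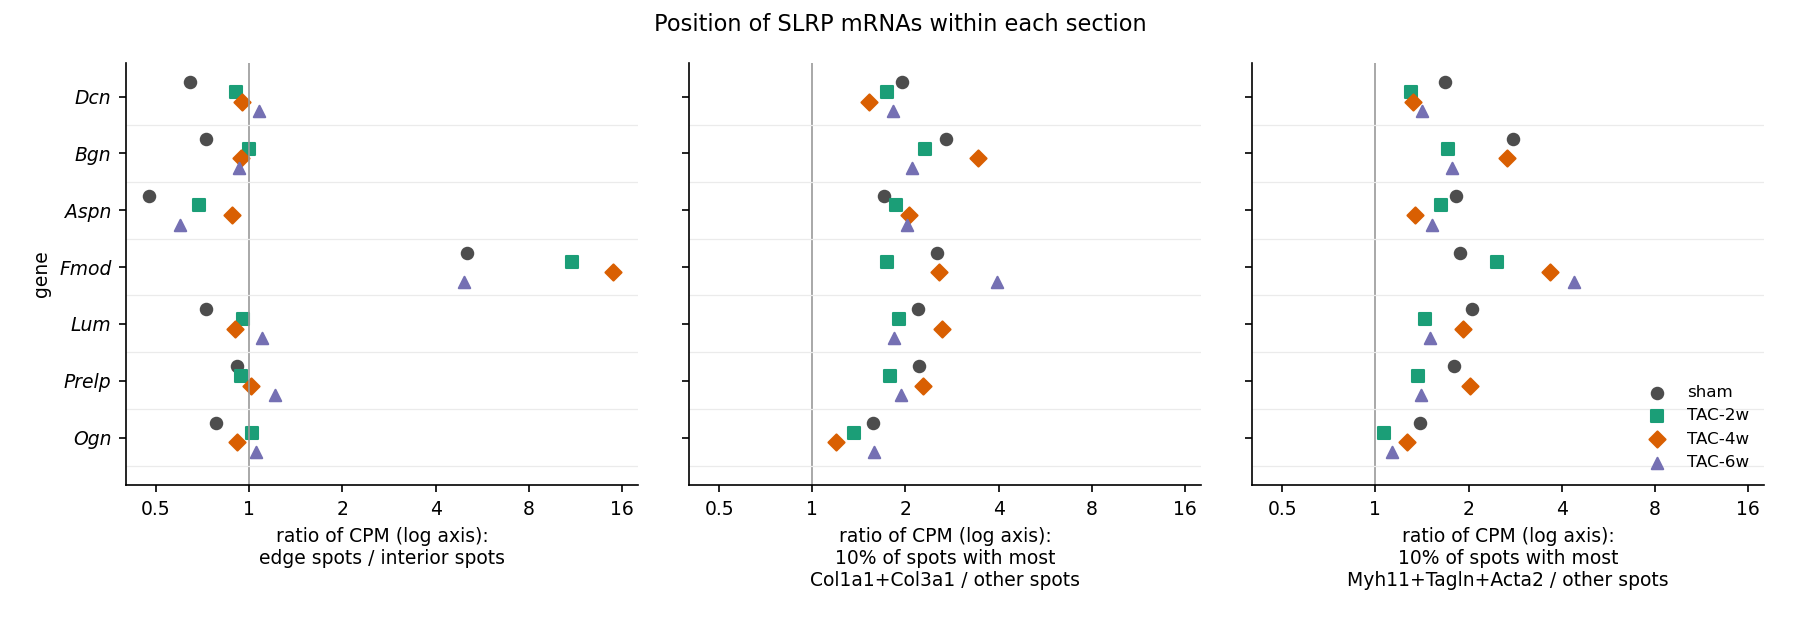
Level in edge spots, in the 10% of spots with the most Col1a1 and Col3a1 and in the 10% with the most smooth muscle transcripts, each divided by the level in the other spots of the section, on a log axis with 1 symbol per section. Fmod is at 4.93 to 15.0 at the edge and Aspn at 0.475 to 0.88, where the interval of the TAC-4w value held 1. All 7 genes are above 1 in collagen-rich spots, Fmod from 3 to 6 UMIs in the first 3 sections.

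Across spots, the gene whose level went most with Dcn was Gsn, the actin-severing protein gelsolin, with a mean Pearson's r of 0.525 over the 4 sections, followed by Mgp (0.373). Gsn also led for Bgn (0.378), Lum (0.299), Prelp (0.251), Aspn (0.201) and Ogn (0.146), and for Aspn it was followed by Postn (0.168) and Cilp (0.167). For Fmod the highest value was 0.111, with Ccl21a, a chemokine of lymphatic endothelium. These values are taken across 1228 to 2193 spots that share a section, their depth and their mix of cells, and in counts this sparse the low ones are no finding. Between members, Dcn went with Bgn at 0.296, with Lum at 0.266 and with Ogn at 0.141.

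The other 11 genes of the family were mostly scarce. In the sections, at most 4 of them could be tested, and 2 calls were made. Podn was higher at TAC-4w (1.99 times sham), where 15.2% of all genes were, and Tsku at TAC-6w (1.71 times), where 17.6% were. No gene was called lower, with 3.27%, 2.5% and 0.962% of all genes in order of time. Under either other scaling the call at TAC-6w was lost, while 1 of 4 was still higher at TAC-4w. Of 7 tested in fibroblasts, where the shares of all genes are those given for the members, 1 was higher at TAC-2w (Chad, 1.72 times) and 1 lower (Tsku, 0.606 times). At TAC-4w, 3 were higher, Epyc (5.78 times), Omd (2.65 times) and Ecm2 (1.64 times), the last named after its value was seen, and 2 lower, Chad (0.626 times, from 25 UMIs) and Chadl (0.647 times, from 17 UMIs). At TAC-6w, Tsku was higher (2.04 times), and Epyc (0.242 times) and Omd (0.595 times) were lower. Omd, a keratan sulfate member, was at 45.9, 66.3, 122 and 27.3 CPM, and so had its highest library at TAC-4w and its lowest at TAC-6w, as Ogn did.

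Of 23 enzymes that build the chondroitin, dermatan and keratan sulfate chains, 9 of 20 tested were called higher at TAC-6w in the sections, where 17.6% of all genes were, and 0 lower, with 0.962%. Xylt1, which starts the chain, was at 2.69 times sham, from 14 and 70 UMIs, and the sulfotransferase Chst2 at 2.05 times, and under either other scaling the count was 2 of 20, with 8.47% and 6.46% of all genes. At TAC-2w, 0 of 17 were higher and 2 lower (Chst15 and Chst11), with 3.27% of all genes lower, and at TAC-4w, 1 of 17 was higher (Chpf2), with 15.2%, and 2 lower (Chst1 and Chst15), with 2.5%. Of 21 tested in fibroblasts, 0 passed 1.5-fold at TAC-2w. At TAC-4w, 4 were higher, led by Chst2 (3.15 times) and Chst15 (2.94 times) with Chst12 and Dse, where 12.5% of all genes were, and B3galt6 was lower (0.610 times), with 9.24%. At TAC-6w, Chpf was higher (1.92 times), with 8.34%, and Chst15 lower (0.412 times), with 13.5%.

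The partners of the family, among them the collagens it binds, the proteases that process it and the TGF-β and Toll-like receptor genes, were 28 genes in the files. In the sections, 22 of 25 tested were called higher at TAC-6w, where 17.6% of all genes were, and 0 lower, with 0.962%. Their median ratio was 1.94, against 1.24 over all genes, led by Mmp13 (3.57 times, from 53 UMIs) and Col3a1 (3.05 times). With the total without mitochondrial and rRNA-like features 19 were called higher, with 8.47% of all genes, and after division by the median ratio 15, with 6.46%. At TAC-4w, 7 of 24 were higher, with 15.2% of all genes, led by Ccn2 (4.08 times) and Tgfb2 (2.45 times), and 5 lower, with 2.5%, led by Col3a1 (0.358 times) and Col6a3 (0.454 times). At TAC-2w, only Ccn2 of 24 was called, at 0.662 times, with 3.27% of all genes lower. So the section with the most Dcn, TAC-4w, had the least Col3a1, and at TAC-6w the collagens and 5 of the members were higher together.

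In fibroblasts, 0 of 25 partners were called at TAC-2w. At TAC-4w, 5 were higher, with 12.5% of all genes, and 5 lower, with 9.24%. Those were Ccn2 (4.16 times) and Tgfb3 (2.66 times) at the top, then Lox, Col1a1 and Col1a2, and at the bottom Adamts4 (0.226 times) and Col5a3 (0.452 times), then Adamts5, Tgfb2 and Fbn1. Col1a1 was used in the fibroblast gate, as was Col3a1, so its call is not free of that choice. At TAC-6w, 4 were higher, Tgfb1 (2.58 times), Ccn2 (2.36 times), Mmp2 and Pcolce, with 8.34% of all genes, and Adamts5, a protease that cleaves large proteoglycans, was lower (0.579 times), with 13.5%. The genes given without a value beside these were named after their values were seen.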

How the data were processed

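UMI counts per gene and spot, and per gene and cell barcode, were deposited by the authors as raw counts, without normalization, from Space Ranger and Cell Ranger on mouse genome build mm10. The file headers name spaceranger 1.2.0 and cellranger 6.0.0, the submitters' processing notes Space Ranger 1.3.1 and Cell Ranger 7.0.0. After the study's methods, the cells used had 500 to 30000 UMIs, 200 to 6000 genes and under 15% mitochondrial UMIs. No doublet caller was run. Cells with Ptprc or Pecam1 were left out of the fibroblasts, and a gate without 7 further lineage genes was an alternative. Spots were not filtered.

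Counts were summed per section, and per library and cell type, and divided by the total to give levels per 1000000 UMIs (CPM). Ratios have exact conditional binomial, levels Poisson and shares Clopper-Pearson 95% intervals. Genes that reached 50 UMIs in 1 of the sums compared were called at 1.5-fold, and all of them served as background. The members, gene lists, 12 subset markers and gates were chosen with earlier results of these data known. Named beside the members were the 2 highest and 2 lowest genes of each list, the 5 genes closest to each member across spots and the 10 across fibroblasts. Promoters came from RefSeq (GRCm38.p6). Scripts used matplotlib 3.10.9, pandas 2.3.3, scipy 1.17.1 and numpy 2.4.6 under Python 3.11.15 and were tested on simulated data.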

Additional observations from a re-analysis of the deposited data

How the results depend on the processing

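With the total taken without mitochondrial and rRNA-like features, 3 members were at least 1.5-fold lower in the TAC-2w section in place of 0. Under that total, under division by the median ratio of all genes and at 2-fold, 0 members were higher in the TAC-4w section in place of 1. With no filter on cells, and with no Col1a1 and Col3a1 condition, 1 member (Fmod, 1.53 times sham without the filter) was higher in TAC-2w fibroblasts in place of 0, and at 2-fold 0 were higher in TAC-6w fibroblasts in place of 3. With cells thinned to 2000 UMIs, 2 markers in place of 1 held lower Aspn (Cxcl14 and Hapln1), and 2 in place of 0 lower Ogn (Wif1 and Thbs4), in all 4 libraries, the added ones resting on few cells. Of the markers with higher Aspn, 3 of 4 were kept and Thbs4 was lost. Of those with higher Fmod, 4 of 6 were kept and Wif1 and Cthrc1 were lost. Of the other values, 133 ratios moved beyond their counting interval and 168 did not, as did 33 percentages against 51, and no called ratio turned its direction. No paired analysis was possible because each group holds 1 section and 1 library. Leaving out a replicate was not possible for the same reason. Depth limits Fmod in the sections, which held 18 to 133 of its UMIs, and the TAC-4w fibroblasts, which were 265 cells.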
